A study of Rattus norvegicus with 61 samples.

Results

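The 5 control livers and the 5 whole spleen samples of a rat study of immune cells and liver injury were set against each other transcript by transcript. They were 10 of the 61 RNA sequencing samples of the study, and were taken by their labels alone. All were from male wild-type Sprague-Dawley rats, 6 weeks old per the study's methods. The control livers came from rats that had been fasted overnight, had received 0.5% methylcellulose (the vehicle of the study's toxicants) by gavage and were sampled 24 h later, and the RNA was from a piece of the largest lobe after perfusion. The spleens came from untreated rats, and their RNA was from a cell suspension pressed through nylon mesh after lysis of the red cells. Organ, vehicle with fasting, and handling therefore cannot be told apart in any difference given here, and in bulk RNA fewer cells of a type and less RNA per cell cannot be told apart either. The labels did not say that the replicates of a group came from separate animals, so the p-values measure the spread between these samples.

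The liver is built mostly of hepatocytes, which secrete most plasma proteins, make bile and carry out much of the body's intermediary and drug metabolism. A small number of their transcripts, those of secreted proteins above all, are made in very large amounts. The spleen filters blood in its red pulp and holds lymphocytes in its white pulp, so its RNA comes from a mixture of B cells, T cells, natural killer cells, macrophages and granulocytes together with stromal cells.

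The deposited table listed 31196 transcripts by Ensembl transcript identifier without gene names, and 0 of them could be paired with a gene through the reference tables used here, so transcripts are described by their levels and the most abundant ones are named by identifier. Levels are given in CPM, the value as a share of its sample's total, scaled to 1000000. Low values tended to be multiples of a unit particular to each transcript, so a count here is not a read. Whether that unit is the transcript's length was not tested, since no lengths were at hand, and every ranking of transcripts within a sample, the measures of concentration included, holds on the deposited scale. The totals were 10484912 to 12547746 in the control livers and 10177572 to 13587693 in the spleens, and 1 count was worth about the same in both. No 2 of the 10 samples held identical values.

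Replicates were close to each other and far from the other organ. Over transcripts, the Pearson correlation of log2(CPM + 1) was 0.954 to 0.973 between control livers, 0.974 to 0.980 between spleens and 0.294 to 0.327 between a liver and a spleen. Marker genes of the cell types could not be looked up without gene names, so the labels were set against the other groups of the study. The mean spleen profile had a correlation of 0.985 with sorted B cells, 0.979 with sorted NK cells and with CD8 T cells, 0.975 with CD4 T cells and 0.894 with neutrophils. The mean control liver profile had a correlation of 0.933 with livers of rats given acetaminophen (APAP) and 0.961 with livers of rats given methylene dianiline (MDA), and of 0.296 to 0.323 with the spleen, blood and sorted cell groups. These correlations are across transcripts, which are not independent replicates, and are descriptions.

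The first question was how concentrated each transcriptome was. The liver transcriptome rested on far fewer transcripts than that of the spleen. The 10 most abundant transcripts of each sample held 29.6, 26.1, 28.2, 26.7 and 24.9% of the total in control livers 1 to 5, and 10.7, 11.1, 12.4, 12.3 and 13.1% in spleens 1 to 5. Every liver lay above every spleen, and the means were 27.1% ± 1.85 (SD, n = 5) and 11.9% ± 0.988 (SD, n = 5). For the 100 most abundant transcripts the shares were 59.6% ± 2.48 in liver and 44.9% ± 1.81 in spleen.

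Counted the other way, 50% of the liver total was held by 34, 49, 38, 45 and 58 transcripts, and 50% of the spleen total by 144, 153, 126, 129 and 117 transcripts. The spleen thus needed 2.99 times as many transcripts on average to reach the same share. To reach 90% took 1680.0 ± 294 transcripts in liver and 3909 ± 157 in spleen. The effective number of transcripts, which is the exponential of the Shannon entropy and equals the number of equally abundant transcripts that would be as evenly spread, was 428 to 657 in the livers and 1310 to 1599 in the spleens, with means of 534 ± 89.6 and 1454 ± 118. The Gini coefficient over transcripts above 0, which is 0 when all levels are equal and nears 1 when 1 transcript holds everything, was 0.929 ± 0.00837 in liver and 0.871 ± 0.00527 in spleen.

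**Figure D1:**
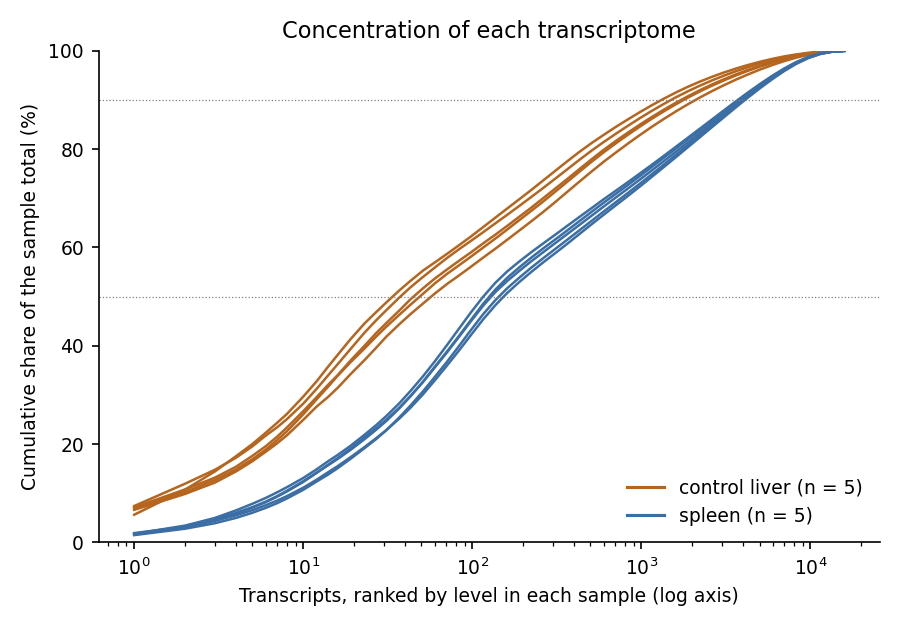
Cumulative share of the sample's total (percent) held by the most abundant transcripts, against their number on a log axis, with 1 line for each of the 5 control livers and 5 spleens. The liver lines reached 50% after 34 to 58 transcripts and the spleen lines after 117 to 153, and the lines of the organs did not cross there.

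The organs also differed in how many transcripts were present at all. Transcripts above 0 made up 53.5 to 56.4% of the list in the livers and 56.6 to 58.1% in the spleens, a narrow gap. At 1 CPM or more the counts were 12230.2 ± 658 in liver and 13798 ± 150 in spleen. At 10 CPM or more they were 4234, 5011, 4529, 4912 and 5472 in liver and 8078, 8192, 7841, 8009 and 7798 in spleen, with no overlap. For all 8 measures (shares of the top 10 and top 100, transcripts holding 50% and 90%, effective number, Gini coefficient, transcripts at 1 and at 10 CPM) every liver lay on one side of every spleen. A two-sided exact permutation test of the group means gave p = 0.00794 for each measure. No smaller p is possible with groups of this size, and the Benjamini-Hochberg adjusted value for the exact test was again 0.00794.

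**Figure D2:**
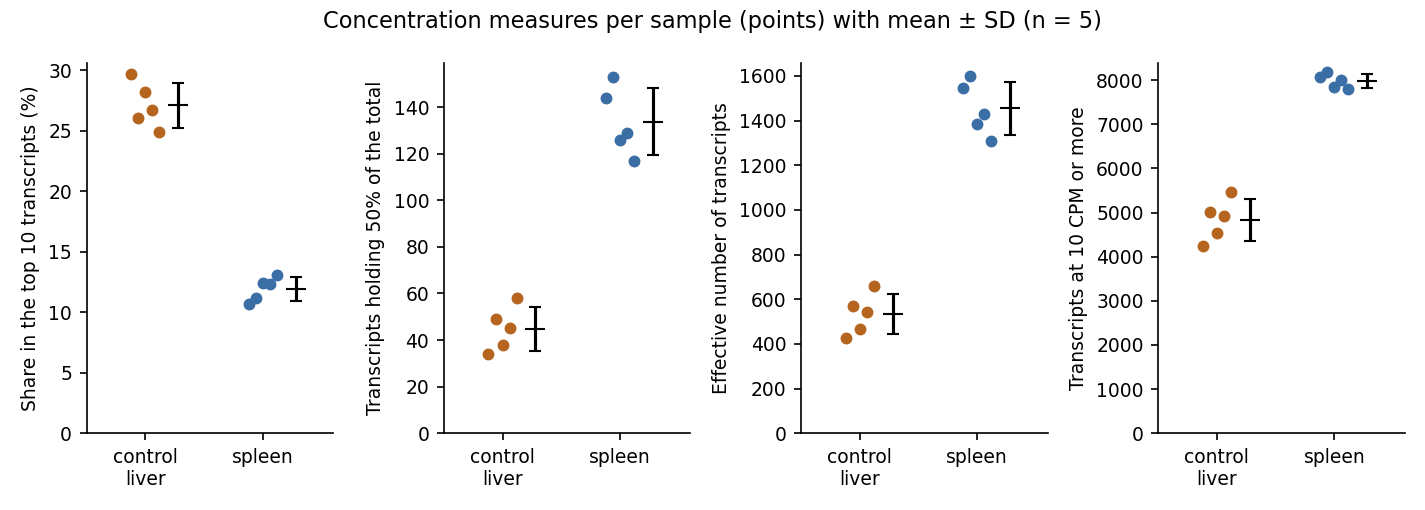
Measures of concentration, 1 panel each with its own axis, for the 5 control livers and the 5 spleens. Points are samples and bars with whiskers are the mean and SD. No panel showed overlap between the organs, for example 4234 to 5472 against 7798 to 8192 transcripts at 10 CPM or more.

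The single most abundant transcript gave the same picture. In all 5 control livers it was ENSRNOT00000003921, with 5.63 to 7.40% of the total. In the spleens 3 different transcripts took first place, with 1.49 to 1.90% of the total. The livers also differed among themselves: livers 1 and 3 were the most concentrated by the top 10 share, and livers 2, 4 and 5 the least. The spleens lay closer together on that measure.

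Other groups of the study placed both organs. The median share of the top 10 transcripts was 18.0% in the APAP livers, with a range of 15.0 to 18.5%, and 22.4% in the MDA livers, with a range of 19.96 to 23.8%, so that every treated liver lay below every control liver and above every spleen. The sorted immune cells had medians from 9.48% in monocytes to 15.6% in neutrophils, on both sides of the spleens. Whole blood cells had a median of 12.5% and a range of 12.1 to 24.7%. The highest blood sample thus lay above every MDA liver and just below every control liver. These groups were given for orientation and were not tested.

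The second question was how many transcripts differed. The 14802 transcripts that averaged 1 CPM or more were tested, and the edgeR quasi-likelihood test with TMM normalization called 11648 (78.7% of those tested) at an adjusted p under 0.05, of which 5615 (37.9%) were higher in liver and 6033 (40.8%) higher in spleen. A call was therefore the usual outcome and says little of a single transcript. TMM scales each sample to the middle of its transcripts and not to its total. It gave the livers factors of 0.504 to 0.757 and the spleens 1.52 to 1.67, so that equal level on the TMM scale meant 0.393 CPM in liver for 1 CPM in spleen. Without TMM, at equal totals, the calls were 3099 higher in liver and 9850 higher in spleen, which is 23.9 and 76.1% of the calls against 48.2 and 51.8% with TMM. The median log2 fold change of all tested transcripts, liver minus spleen, was -0.13 with TMM and -1.46 without, and 1202 transcripts were called in opposite directions by the 2 scalings. The other calls made by both scalings, 3099 higher in liver and 6033 higher in spleen, are by definition those with the same direction. They are all the liver calls without TMM and all the spleen calls with TMM, as the shift between the scalings implies.

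The size of the differences was counted in tiers, with calls from the TMM fit and folds of mean CPM. Of the called transcripts, 2577 were at least 2-fold higher in liver, and all 6033 called higher in spleen were at least 2-fold higher there. A call higher in spleen by TMM began near 2.55 times the liver's CPM, so passing 2-fold there was fixed in advance. A call higher in liver could begin below equal CPM. The same shift enters every tier, so the counts of the organs are not on an equal footing. At 8-fold or more there were 1568 and 2939, and at 32-fold or more 826 and 925. At 128-fold or more the order turned, with 448 higher in liver and 291 higher in spleen. For these tiers a level under 0.295 CPM, which is 3 counts at the smallest total, was set to that value.

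The third question was which transcripts one organ held and the other did not. A transcript was taken as restricted to an organ when it stood at 10 CPM or more in each of its 5 samples and at 3 counts or fewer in each of the 5 samples of the other organ. The rule uses the contrast itself, so the sets are described and not tested. It found 455 transcripts restricted to liver (1.46% of all 31196) and 174 restricted to spleen (0.558%). They made up 11.7% of the 3883 transcripts at 10 CPM or more in all livers and 2.38% of the 7315 at that level in all spleens. Just inside the limits the lowest own-organ levels were 10.09 CPM for liver and 10.01 CPM for spleen, and just outside 9.94 and 9.99 CPM. At the other limit the highest counts in the other organ were 2.98 and 2.99 inside, and 3.01 and 3.03 outside.

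The liver-restricted transcripts were abundant and the spleen-restricted ones were not. The mean level of the liver set in liver ran from 11.4 to 67535 CPM with a median of 106 CPM, against a median of 38.9 CPM for all transcripts present in liver. Of its members 237 were at 100 CPM or more and 51 at 1000 CPM or more. The spleen set ran from 11.9 to 265 CPM with a median of 32.1 CPM, close to the 32.0 CPM of all transcripts present in spleen, and 16 members were at 100 CPM or more and 0 at 1000 CPM or more. In the other organ, 307 of the 455 and 83 of the 174 were listed at 0 in all 5 samples.

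Together the liver-restricted transcripts held 29.3, 34.8, 31.4, 35.5 and 35.1% of the total in livers 1 to 5, a mean of 33.2% ± 2.73 (SD, n = 5). The 10 most abundant of them held 51.4% of the set's share and 17.1% of the liver total. The spleen-restricted transcripts held 0.833% ± 0.0587 of the spleen total, between 0.789 and 0.917% in each sample. Levels within the sets varied between replicates somewhat more than those of other transcripts present: the median coefficient of variation was 20.6% in the liver set against 15.6% for all transcripts present in liver, and 17.5% in the spleen set against 7.84% for all present in spleen.

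**Figure D3:**
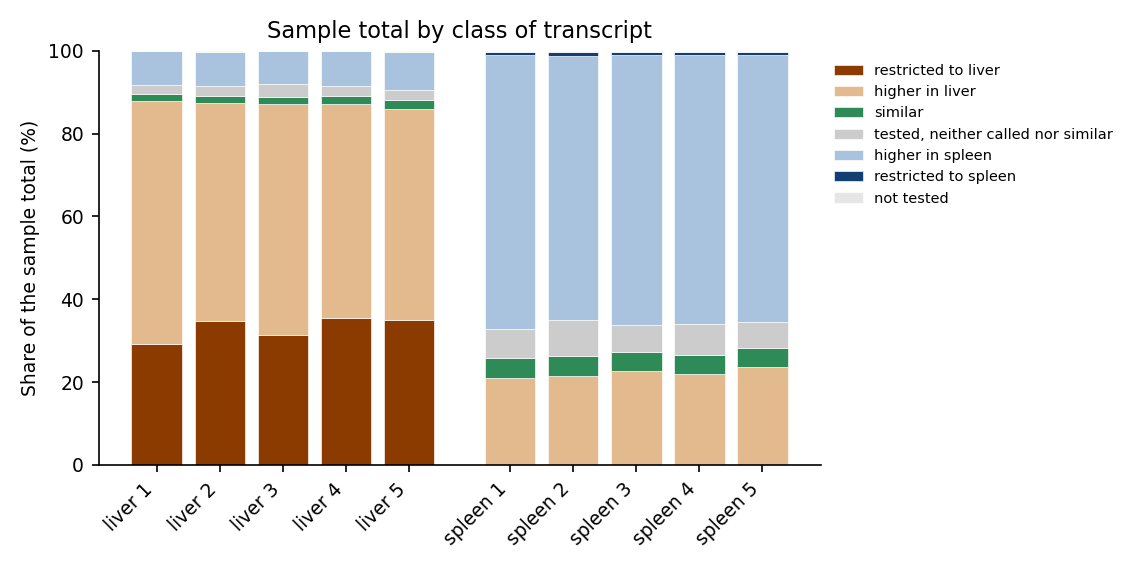
Share of the total (percent) in each of the 5 control livers and 5 spleens, stacked by class of transcript from the comparison of the organs. Liver-restricted transcripts filled 29.3 to 35.5% of the liver columns, while spleen-restricted ones filled 0.789 to 0.917% of the spleen columns.

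The restricted share was greater at higher levels in liver and not in spleen. Among transcripts present in all livers, 218 of 2897 with a mean of 10 to 100 CPM were restricted (7.53%), 186 of 875 at 100 to 1000 CPM (21.3%) and 51 of 111 at 1000 CPM or more (45.9%). Among those present in all spleens the shares were 158 of 6154 (2.57%), 16 of 1016 (1.57%) and 0 of 145. In the same steps, the share also found at 10 CPM or more in every sample of the other organ fell from 75.0 to 63.7 and 42.3% for liver transcripts, and climbed from 31.7 to 68.2 and 92.4% for spleen transcripts. The most abundant transcripts of the spleen were thus also present in liver, whereas those of the liver divided into a shared and a restricted part.

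How far a transcript was absent from the other organ was graded. Of the 3883 transcripts present in liver, 2845 had a mean of 10 CPM or more in spleen (73.3%), 405 lay at 1 to 10 CPM (10.4%) and 178 below 1 CPM without meeting the rule (4.58%). Of the 7315 present in spleen, 3431 had a mean of 10 CPM or more in liver (46.9%), 3206 lay at 1 to 10 CPM (43.8%) and 504 below 1 CPM without meeting the rule (6.89%). Spleen transcripts missing from the 10 CPM level in liver were therefore mostly low in liver and seldom absent from it. At these totals 3 counts correspond to about 0.295 CPM in the smallest library. Since a count is not a read, no counting interval is given.

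The ranked lists of both organs shared 3 of their top 10, 23 of their top 100 and 370 of their top 1000 transcripts. Of the liver's top 100, 47 were restricted to liver and 40 were at 10 CPM or more in every spleen. Of the spleen's top 100, 0 were restricted to spleen and 97 were at 10 CPM or more in every liver. A group of 29 transcripts had a mean of 1000 CPM or more in both organs, out of 111 at that level in liver and 145 in spleen. They held 20.3% ± 4.24 of the liver total and 20.2% ± 1.42 of the spleen total. By edgeR with TMM 14 of the 29 were higher in liver, 11 were higher in spleen and 1 was in the set at similar level described further on.

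Among the livers, the 29 shared abundant transcripts held most in livers 1 and 3, where the restricted set held least. Both are shares of the same total, so an opposite trend was partly built in. The share of the 29 was 26.3, 17.6, 23.2, 18.6 and 16.1% in livers 1 to 5. The trend did not hold among livers 2, 4 and 5. Liver 4 had the highest restricted share (35.5%) and yet a larger share of the 29 than livers 2 and 5. In the top 10 lists of the livers, 3, 4, 2, 5 and 4 transcripts were restricted to liver and 6, 3, 5, 3 and 3 were among the 29. In every spleen 9 of the top 10 were among the 29. With both restricted sets left out, a setting chosen after seeing the data, the 10 most abundant of the remaining transcripts held 29.6% ± 3.45 of the rest in liver and 12.04% ± 0.994 in spleen. The number holding 50% was 27, 69, 35, 65 and 97 in the livers and 114 to 149 in the spleens, still without overlap. At 1 CPM or more the organs then overlapped, with 13628 transcripts in liver 5 against 13536 in spleen 3 and 13436 in spleen 5. The effective number was 621 ± 173 and 1414 ± 115. The difference between the organs thus remained in direction for all 8 measures among transcripts that were not restricted. The exact permutation test gave adjusted p of 0.00907 to 0.0238. It did not repeat the choice of the restricted sets, which used the same samples and contrast, so no conclusion is drawn from these p-values.

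The most abundant liver-restricted transcript, ENSRNOT00000003921, stood at 56342, 69916, 73993, 71155 and 66267 CPM in livers 1 to 5. In the spleens it was at 0 in 3 samples and at 0.0885 and 0.0958 CPM in the others, 2 counts in all. The edgeR adjusted p was 4.39e-11, but the rule had chosen the transcript on this same contrast, so a small value was fixed in advance. In treated livers, which did not choose it, its mean was 35595 CPM after APAP and 45031 CPM after MDA. The second, ENSRNOT00000022113, stood at 24854, 20780, 21891, 19323 and 17075 CPM in the livers and at 0 in all spleens, at least 70512-fold higher in liver against a floor of 3 counts per library on the deposited scale. It was listed at 0 in every blood and sorted cell group and stood at 6692 CPM in APAP livers and 8411 CPM in MDA livers.

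The most abundant spleen-restricted transcript, ENSRNOT00000077771, stood at 224, 293, 322, 336 and 149 CPM in spleens 1 to 5 and at 0 in all control livers, at least 899-fold higher in spleen against the same floor. It was also at 0 in the treated livers. Sorted B cells had the highest mean among the sorted types, 358 CPM, followed by NK cells with 208 CPM and CD4 T cells with 179 CPM, and neutrophils had the lowest with 31.2 CPM. The second, ENSRNOT00000048908, stood at 209, 309, 194, 229 and 229 CPM in the spleens and at 0 in the control livers, at least 794-fold higher in spleen. It too was highest in B cells, with 223 CPM, and lowest in neutrophils, with 16.0 CPM.

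**Figure D4:**
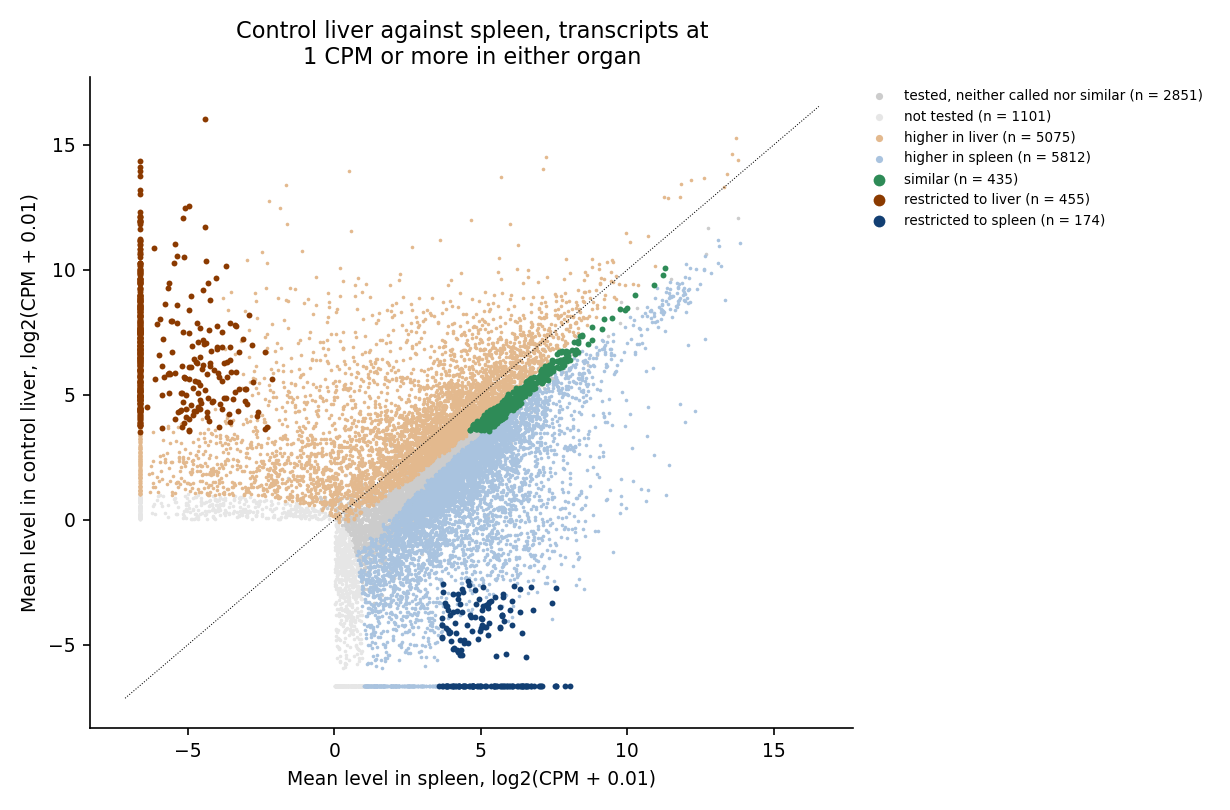
Mean level in control liver against mean level in spleen, both as log2(CPM + 0.01), for transcripts at 1 CPM or more in either organ; colours mark the class, and the dotted line marks equal CPM. The 455 liver-restricted points at the left reached far higher levels (up to 67535 CPM) than the 174 spleen-restricted points at the bottom (up to 265 CPM), and the 435 transcripts at similar level by TMM lay below the line of equal CPM.

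Samples that had no part in choosing the sets were then used to follow them. First, sets were chosen on 4 livers and 4 spleens and looked up in the left-out pair. Of the liver sets, which held 462 to 494 transcripts, 93.3 to 99.6% were again at 10 CPM or more in the left-out liver, the lowest being liver 1, and 96.8 to 98.9% were again at 3 counts or fewer in the left-out spleen. Of the spleen sets, which held 187 to 217 transcripts, 93.5 to 98.4% were again at 10 CPM or more in the left-out spleen and 85.7 to 94.1% at 3 counts or fewer in the left-out liver. The absence from liver was the less repeatable part of the spleen rule. The matching shares for all transcripts were not counted, so no retention particular to these sets is claimed.

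The liver-restricted set was high in the treated livers and near 0 in every group without liver. Its summed level was 292976 to 354729 CPM in control livers, 193118 to 230534 CPM in APAP livers and 215943 to 254929 CPM in MDA livers. All 10 treated livers lay below all 5 control livers. The rule had set a lower limit in the control livers and none in the treated ones, so a lower sum there was partly built in. In spleens the sum was 5.81 to 7.45 CPM, and in whole blood cells and the 6 sorted types it was 7.23 to 37.4 CPM. Of the 455 members, 384 were at 10 CPM or more in all APAP livers (84.4%), 418 in all MDA livers (91.9%) and 377 in all 10. By group mean, 418 members (91.9%) had 10 CPM or more in both treated liver groups. Of the 2365 transcripts present in liver and higher there by TMM but not restricted, 2318 did, a larger share. In the 46 samples that were not liver, 368 members never exceeded 3 counts and 190 were at 0 throughout. The 46 include the 5 spleens, in which the rule itself required 3 counts or fewer. The share among all transcripts was not counted. Only 6 members had a mean of 1 CPM or more in the blood or any sorted type, and 1 of them 10 CPM or more. The B, T and NK cells were sorted from spleen, so low levels in them were partly fixed by the rule.

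The spleen-restricted set was found in the blood and in every sorted immune cell type. Its summed level was 7894 to 9171 CPM in spleens, and its group median was 8835 CPM in B cells, 9095 CPM in neutrophils, 7385 CPM in CD4 T cells, 6866 CPM in CD8 T cells, 6777 CPM in NK cells, 5550 CPM in whole blood cells and 4948 CPM in monocytes. In control livers the sum was 5.37 to 7.73 CPM. In the treated livers it was 28.1 to 90.4 CPM after APAP and 22.5 to 95.3 CPM after MDA, above every control liver. The rule had capped each member at 3 counts in the control livers and set no cap in the treated ones. A higher sum in treated livers was thus partly built in, and left-out control livers also passed the cap for some members. Of the 174 members, 104 exceeded 3 counts in at least 1 treated liver. The matching share among all transcripts was not counted.

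**Figure D5:**
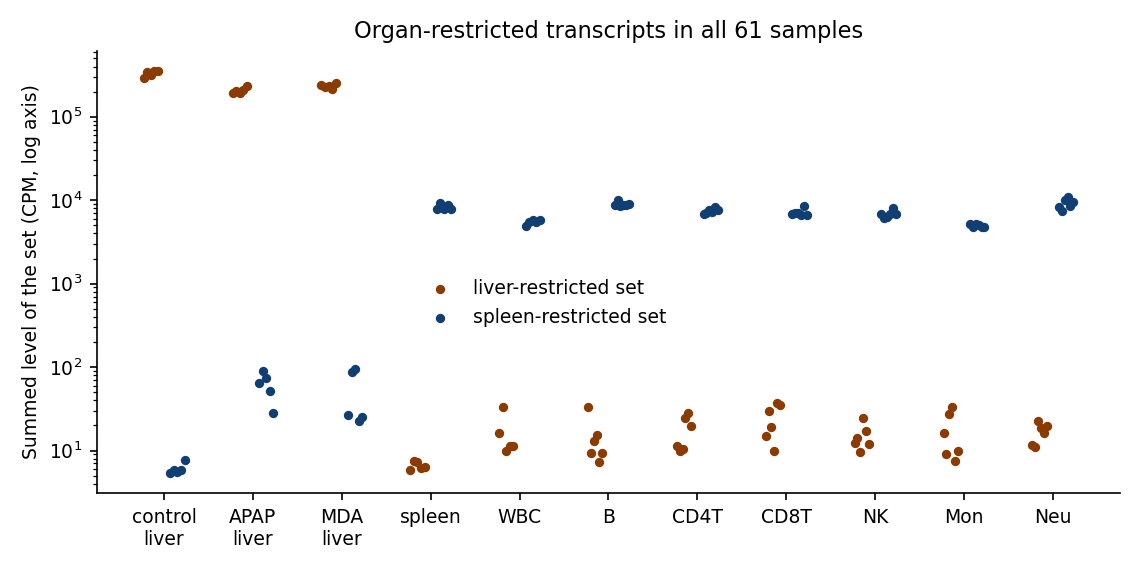
Summed level (CPM, log axis) of the liver-restricted and spleen-restricted sets in all 61 samples by group; each point is a sample. The liver set lay at 193118 CPM or more in every liver and at 37.4 CPM or less elsewhere, and the spleen set lay at 5.37 to 7.73 CPM in control livers and at 22.5 to 95.3 CPM in treated livers.

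Like other spleen transcripts, the spleen-restricted ones were found in the sorted cell types. Of the 174, 173 had a mean of 10 CPM or more in at least 1 of the 6 types (99.4%), against 99.9% of all 7315 transcripts present in spleen. At 1 CPM or more in all 6 types the shares were 97.1 and 99.6%. The highest type was B cells for 79 members (45.4%, against 9.17% of all those present in spleen), CD4 T cells for 32 (18.4 against 16.7%), neutrophils for 24 (13.8 against 15.3%), monocytes for 14 (8.05 against 27.6%), CD8 T cells for 13 (7.47 against 13.3%) and NK cells for 12 (6.90 against 18.0%). For 82 members the highest type exceeded the next by over 1.5-fold, with 1 CPM added to both. The matching share of all those present in spleen was not counted, so the 82 are not read as a trait of the set. The B, T and NK cells had been sorted from spleen and the monocytes and neutrophils from blood. Spleen itself was above all 6 types for 26 members (14.9% against 8.23% of those present in spleen), for 1 of them by over 2-fold.

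Transcripts that were higher in one organ by TMM without being restricted to it gave other values in these samples. Of the 2365 present in liver and higher there, 81.4% had a mean of 10 CPM or more in a sorted immune type, against 0.220% of the liver-restricted ones. Of the 3760 present in spleen and higher there, 99.9% had 10 CPM or more in a sorted immune type, and 34.6% had 10 CPM or more in both treated liver groups.

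The last question was which transcripts both organs held at similar level. A transcript was called similar when it was at 10 CPM or more in all 10 samples and the 95% interval of its fold change lay within 1.5-fold either way. Of the 2777 transcripts at 10 CPM or more in all 10 samples, 435 met this on the TMM scale, which is 15.7% of them and 2.94% of all tested. Without TMM 446 met it (3.01% of all tested), and 0 transcripts were in both sets. The scalings lay 1.35 apart on the log2 scale, more than the whole range of 1.17 that the rule allows. Which transcripts are called similar was therefore set by the choice of scaling. Of the 435, 132 were also called different by edgeR with a small fold.

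The sets differed in level as the scaling implies. On the TMM scale the 435 had medians of 22.5 CPM in liver and 55.5 CPM in spleen, with a median ratio of 0.406. At equal totals the 446 had medians of 38.4 and 38.9 CPM, with a median ratio of 1.005. The transcripts of the first set had maxima of 1071 CPM in liver and 2480 CPM in spleen, and the second set reached 10128 and 10056 CPM. Together the 435 held 1.90% of the liver total and 4.76% of the spleen total, so that transcripts similar on the TMM scale were a small part of either organ. The share held by the 446 was not summed. By the TMM calls, transcripts higher in liver but not restricted held 53.8% of the liver total and 22.1% of the spleen total, and those higher in spleen but not restricted held 8.35 and 64.9%.

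The most abundant member of the TMM set, ENSRNOT00000091873, stood at 1001, 1012, 997, 1116 and 1227 CPM in livers and at 2581, 2472, 2460, 2422 and 2465 CPM in spleens. No liver reached the CPM of any spleen, while its log2 fold change with TMM was 0.14 (95% interval -0.07 to 0.35, edgeR adjusted p = 0.21), and -1.21 at equal totals. DESeq2 gave 0.21 with an adjusted p of 0.0289 and so called it higher in liver. ENSRNOT00000027073 stood at 1183, 842, 904, 773 and 764 CPM in livers and at 2482, 2206, 2451, 2313 and 2379 CPM in spleens, with a log2 fold change of -0.01 with TMM (95% interval -0.47 to 0.44, edgeR adjusted p = 0.953) and -1.41 at equal totals.

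The 435 were broadly present beyond the samples that chose them. At 10 CPM or more in all 61 samples were 425 of them (97.7%), against 2281 of the 2777 transcripts at that level in all 10, which include the 435 (82.1%). Across the 6 sorted types their mean levels spanned a median of 0.80 on the log2 scale, against 0.92 for the other 2342 transcripts present in all 10, and 66.2 against 55.8% spanned less than 1 on that scale. Over the 9 groups other than control liver and spleen, the median SD of their log2 level was 0.41 against 0.56. Those groups include the APAP and MDA livers. That SD thus spans liver and immune cells, much like the contrast that chose the set, and a smaller value was partly built in. All these values are descriptions with no test.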

How the data were processed

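RNA from 5 control livers and 5 spleens was sequenced as paired-end libraries made with a directional kit. Per the labels and the study's methods, the authors quantified transcripts with Salmon 1.6.0 on the Rnor_6.0 cDNA set with corrections for GC and sequence bias, and read them into R 4.1.3. The processing notes also name the mRatBN7.2 build without its role. The deposited values are one estimated count per transcript and sample, on the scale of the library as the authors deposited them, although the methods speak of TPM. Among 3078 transcripts above 0 in 4 to 9 of the 15 livers, values were divided by the transcript's own smallest value. Of the quotients between 1.5 and 3.5, 39.6% lay within 0.1 of 2 or 3, against 20.2% of the undivided values in that span. A value is thus not a read, and whether the transcript's unit is its length was not tested.

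Values were divided by the sample total for CPM and rounded to whole numbers for edgeR 4.0.16 (R 4.3.3; TMM, quasi-likelihood test, mean of at least 1 CPM, Benjamini-Hochberg adjusted p under 0.05), which was first tested on simulated data. Intervals came from the fold change and its F statistic. Concentration was compared by exact permutation. Alternatives used limma 3.58.1, DESeq2 1.42.0, other thresholds, no TMM, thinning to the smallest total, and each replicate left out. Transcripts named are the 2 most abundant of each set. The groups came from the labels, and the members, lists and thresholds were chosen with earlier results of these data known. Replicate numbers did not pair the samples. Identifiers could not be matched to genes, so no gene names or sequences are given. Depth was 10177572 to 13587693 per sample.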

Additional observations from a re-analysis of the deposited data

Results flagged for a closer look

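In 30 groups of 5 values checked for a sample far from the rest, 1 was found, about what chance gives at 1 in 20. The summed share of the spleen-restricted transcripts was 0.000773% of the total in control liver 5, against 0.000584% in the next highest control liver. The gap was 0.802 of the range of the 5 livers. In CPM the value was 7.73, below every treated liver, in which the rule had set no cap. The cause of the value was not tested.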

How the results depend on the processing

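All 8 concentration differences kept their direction in 112 alternative values, with an adjusted exact permutation p of 0.00794 to 0.0238. The alternatives thinned the samples, removed low or top transcripts, left out the restricted sets or left out a replicate. The highest exact permutation p, 0.0238, came from leaving out the restricted sets. The same contrast had chosen those sets, so no conclusion is drawn from the p-values of that setting. With a mean of at least 10 CPM 6580 transcripts were called, 3221 higher in liver and 3359 in spleen. The split turned to 3099 and 9850 without TMM, 3109 and 10056 by limma with 1 CPM added and 3086 and 10012 with 0.1 CPM added. The liver-restricted set held 883 transcripts with 1 CPM and 193 with 100 CPM as the limit. The spleen-restricted set held 627 and 5 (1.08% of the spleen total at 1 CPM), 83 when 0 was required in liver and 461 when up to 1 CPM was allowed. The similar set held 938 within 2-fold, 102 within a narrower range than 1.5-fold and 1212 from 1 CPM. Leaving out each replicate gave 11286 to 11771 calls, 457 to 488 liver-restricted, 176 to 203 spleen-restricted and 384 to 560 similar transcripts, and a spleen-restricted share of 0.818 to 1.12%. The log2 fold change of ENSRNOT00000091873 was -1.21 without TMM and -1.22 by limma with either amount added, and 0.21 by DESeq2 (adjusted p 0.0289). That of ENSRNOT00000027073 was 0.0634 by DESeq2 and ran from -0.23 to 0.12 over the left-out replicates, being above 0 without liver 2 (0.06), 4 (0.07), 5 (0.12) or spleen 3 (0.00286). The replicate block gave 11310 calls and 399 similar transcripts. The numbers shared by samples are not a pairing (1 of 5 livers correlated best with the spleen of its own number). Depth limits what 0 means, since 3 counts are 0.295 CPM in the smallest library.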
